A study of Mus musculus with 13 samples.

Results

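The testes of mice heterozygous for Wfdc15a (genotype Wfdc15a+/-, Het) were compared with those of wild-type mice (WT). Of the 13 libraries of the study, 7 entered the comparison, chosen by their genotype labels: 4 Het and 3 WT. The 6 knockout libraries (Wfdc15a-/-, KO) were left out. The study asks what Wfdc15a does in spermatogenesis, and its design pools the WT and Het mice as controls, so the comparison asks how far the 2 genotypes of that pool differ. Each library was made from whole testis at 15 weeks of age with the tunica removed, by Smart-seq2, a full-length cDNA method that amplifies small amounts of RNA. The titles carry a further number, which is 2 for the 3 WT libraries and for Het replicates 2 to 4 and 1 for Het replicate 1 alone. Its meaning, the design of the allele, the litters and the processing days could not be learned from the labels, so the p-values below measure the spread between these libraries, each taken as 1 mouse.

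Wfdc15a belongs to the genes of whey acidic protein (WFDC) type, which encode small secreted proteins with a disulfide-bonded core, many of them inhibitors of proteases. Many of these genes lie in one cluster on mouse chromosome 2 and are active in the male reproductive tract. Whole testis is mostly germ cells, which pass from spermatogonia through meiosis to round and elongating spermatids, with Sertoli cells that nurse them inside the tubules and Leydig cells that make testosterone between the tubules. In RNA from whole testis, fewer cells of a type and less RNA per cell cannot be told apart.

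The 7 libraries held 5.64 to 10.1 M reads on genes, with similar depth in the groups (7.68 M ± 1.48 in WT, SD, n = 3; 7.48 M ± 1.87 in Het, n = 4), and 18583 to 19426 genes had a read. Levels are in RPM, read counts scaled to library size, in which a single read is worth 0.0899 to 0.168 RPM. They are not scaled by gene length, so they are compared only within a gene. Before any comparison, WT replicate 1 and Het replicate 2 stood apart from the rest of their groups. The first principal component, with 22% of the variance, put them at -30.9 and -25.3 against 20.9 and 34.9 for WT replicates 2 and 3. The other Het libraries lay between, with Het replicate 1 at -10.85, Het replicate 3 at 5.49 and Het replicate 4 at 5.75. The second component, with 20.8%, put Het replicate 2 at 16.3, near the WT libraries at 18.3 to 20.4, and the other 3 Het libraries at -29.7 to -18.1. The correlation of log2 levels over genes was 0.973 between WT replicate 1 and Het replicate 2, the highest of the 21 pairs. It was 0.959 to 0.968 between WT libraries and 0.964 to 0.969 between Het libraries. WT replicate 1 and Het replicate 2 were also the deepest libraries, with 9.37 M and 10.1 M reads on genes. The others had 5.64 to 7.42 M, and the part of depth in this likeness was not tested. Every pair of libraries differed by more than counting noise (chi-square per gene of at least 6.595), so none was the same library sequenced again. Separately made libraries of 1 mouse could also differ by more than counting noise, so this measure cannot tell whether 2 libraries share a mouse. Genes that mark the labelled tissue, among them Prm1 and Sycp3 of germ cells, Clu of Sertoli cells and Insl3 of Leydig cells, had reads in all 7.

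The transcript of Wfdc15a itself had nearly equal means in the 2 genotypes. The gene (mm10, chromosome 2, 164198863 to 164200130, minus strand) had 85.8, 57.5 and 53.5 RPM in WT replicates 1 to 3 and 55.9, 78.1, 58.2 and 69.6 RPM in Het replicates 1 to 4. The highest library was WT and the next highest was Het, and the groups overlapped throughout. The means were 65.6 RPM ± 17.6 (SD, n = 3) in WT and 65.5 RPM ± 10.3 (n = 4) in Het, from 382 to 869 reads a library. On the log2(RPM + 1) scale, used for every difference below, Het less WT was 0.015, with a standard error of 0.18 and a 95% interval of -0.36 to 0.39, so a 2-fold difference in either direction lies outside the interval. The two-sided exact permutation test over the 35 ways to take 4 of 7 libraries gave p = 1.0. The smallest p it can give is 0.0571, so it could not have passed 0.05. Without WT replicate 1 the difference was 0.22 (exact permutation p = 0.267). The 6 KO libraries ranged from 19.4 to 81.3 RPM and so overlapped both genotypes. The level of this transcript therefore cannot serve as a check of the Het labels, and the labels do not say which part of the gene the allele changes.

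**Figure D1:**
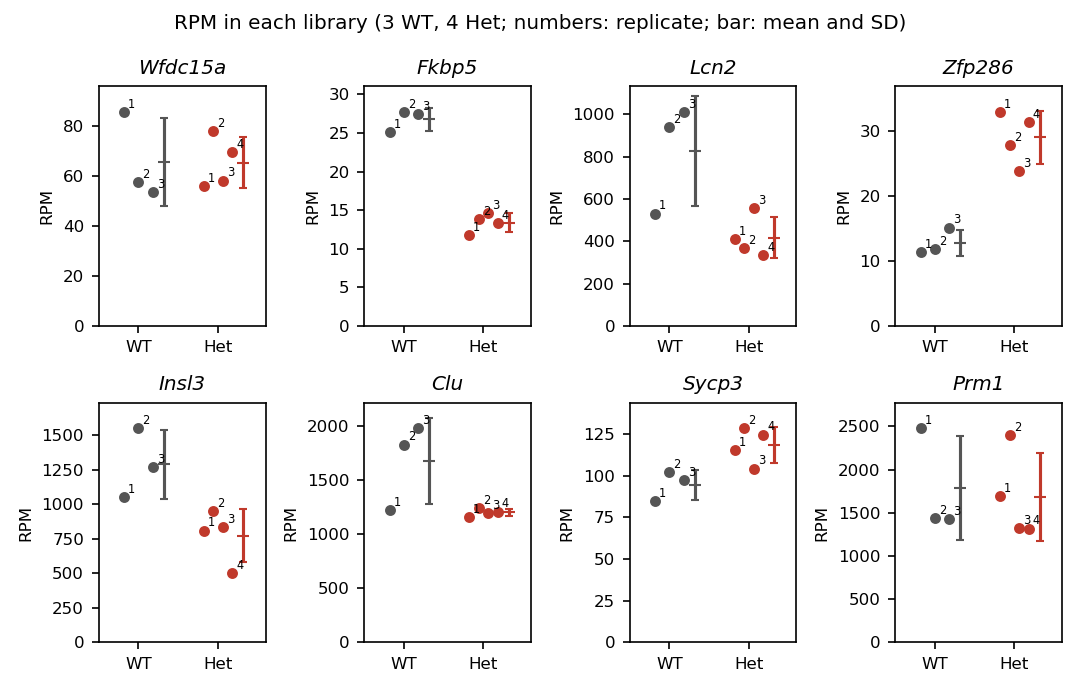
RPM (vertical axes, from 0) of 8 genes in each WT library (grey) and Het library (red), with replicate numbers, and the mean and SD of each group as a bar. Wfdc15a overlaps between the genotypes, Fkbp5, Zfp286, Insl3 and Sycp3 do not, and WT replicate 1 lies within or near the Het values for Lcn2 and Clu; no gene shown passed the adjusted threshold.

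No gene differed between Het and WT testis after adjustment for the 16015 genes tested. With limma and Benjamini-Hochberg adjustment at 0.05, 0 genes were higher in Het (0%) and 0 were lower (0%), and the lowest adjusted p was 0.445. At an unadjusted p below 0.05, 290 genes (1.81%) were higher in Het and 770 (4.81%) lower, and limma-voom on the recovered reads also called 0 genes, with 317 higher and 649 lower at that level. All 4 Het libraries lay above all 3 WT libraries for 391 genes (2.44%) and below them for 742 (4.63%). The median difference of all tested genes was -0.044. Of the tested genes 5383 overlap another gene in the table, and their reads cannot be told apart without the strand. Among the genes named here these are Zfp286, Mpp6, Psmb9, Sycp3, Hook1, Sall4, Gfra1, Trf, Insl3, Egfl7, Cx3cr1, Jun, Fitm2, Pltp, Gm11458, Timp1 and Zdhhc5. The lean toward lower values depended on the scaling: genes higher in Het were 27.4% of those with an unadjusted p below 0.05 with RPM, 41.7% with median-of-ratios scaling (427 higher, 598 lower) and 46.8% with quantile normalization (474 higher, 538 lower). Within the libraries of title number 2, which leaves out Het replicate 1, 0 genes were called and 242 and 615 had an unadjusted p below 0.05. Without Het replicate 2 these numbers were 439 and 890, again with 0 genes called. The share of all genes lower at an unadjusted p below 0.05 was 6.28%, 3.27% and 3.8% without WT replicates 1, 2 and 3. Without Het replicates 1, 2, 3 and 4 it was 3.84%, 5.57%, 4.61% and 4.19%. Counts given below for fits without a library are to be read beside these shares.

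**Figure D2:**
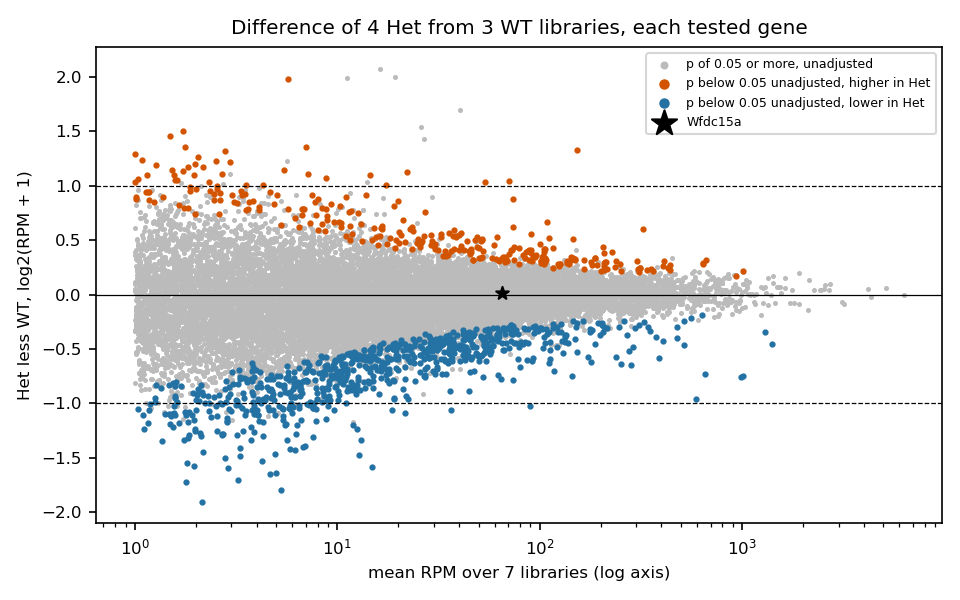
Difference of Het from WT in log2(RPM + 1) (vertical axis) against the mean RPM of the 7 libraries (log axis) for the 16015 tested genes, with 290 genes higher (orange) and 770 lower (blue) at an unadjusted p below 0.05; dashed lines mark a 2-fold difference and the star is Wfdc15a, at 0.015. No gene passed the adjusted threshold, and the spread narrows as the level rises.

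The genes with the lowest p among those lower in Het included lipid carrier, hormone-related and innate immune genes, none past the adjusted threshold. Fkbp5, a co-chaperone of steroid receptors induced by glucocorticoids and androgens, had 25.1, 27.8 and 27.4 RPM in WT and 11.7, 13.8, 14.6 and 13.3 RPM in Het, a difference of -0.95 (SE 0.19, limma adjusted p 0.484). Its WT values lay close together and far from the equally tight Het values. Lcn2, a secreted lipocalin that binds bacterial iron carriers, had 531, 941 and 1012 RPM in WT and 410, 367, 556 and 335 RPM in Het, a difference of -0.96 (SE 0.20). Here WT replicate 1 fell below Het replicate 3, so the groups overlapped. Apoe, a lipid carrier, overlapped in the same way, with 252, 341 and 364 RPM in WT and 254, 184, 205 and 173 RPM in Het (difference -0.64, SE 0.15).

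Mavs and Nod1, genes of innate sensing, were among those low in Het at the unadjusted level. Mavs, the adaptor through which cytosolic RNA sensors signal, had 24.9, 21.1 and 21.0 RPM in WT and 11.1, 11.7, 12.9 and 9.77 RPM in Het, a difference of -0.92 (SE 0.21). Nod1, a sensor of bacterial cell wall fragments, had 2.23, 4.29 and 6.86 RPM in WT and 0.757, 0.0899, 0.826 and 0 RPM in Het, the last from 0 reads. For both genes the groups did not overlap. Grk6, a kinase that turns off G protein-coupled receptors, had 6.72 to 9.25 RPM in WT and 1.35 to 2.52 RPM in Het (difference -1.65, SE 0.32). Esyt1, which tethers the endoplasmic reticulum to the plasma membrane, had 6.30 to 10.7 RPM in WT and 1.39 to 3.06 RPM in Het (difference -1.64, SE 0.32). Susd3 had 106 to 125 RPM in WT and 68.7 to 82.3 RPM in Het, a difference of -0.59 (SE 0.13). Of 11 tested genes of the interferon response list 1, the immunoproteasome subunit gene Psmb9 (difference -0.83), was lower at the unadjusted level (9.09%, beside 4.81% of all genes), and the list median was -0.26. That median was -0.41 without WT replicate 1, -0.16 without WT replicate 3 and -0.39 without Het replicate 3.

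The 10 genes with the lowest p among those higher in Het also had none past the adjusted threshold. Zfp286, a zinc finger gene, had 11.3, 11.8 and 15.1 RPM in WT and 32.9, 27.9, 23.8 and 31.3 RPM in Het, a difference of 1.13 (SE 0.20, limma adjusted p 0.445) with no overlap. It is one of the genes that overlap another. Rbbp8, which starts the resection of DNA breaks, had 29.7, 29.5 and 27.7 RPM in WT and 41.8, 47.2, 44.3 and 43.3 RPM in Het (difference 0.59, SE 0.15). Its groups were tight and separate.

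Further genes with low p on the higher side lay at low or moderate levels. Mos, the kinase that holds oocytes in meiosis, had 0.202, 1.48 and 1.54 RPM in WT and 4.29, 3.06, 3.44 and 3.71 RPM in Het, a difference of 1.23 (SE 0.37). Btg4, an adaptor for removal of poly(A) tails, had 6.57 to 10.4 RPM in WT and 12.1 to 23.1 RPM in Het (difference 0.92, SE 0.27). Every Het library was above every WT library for both genes. Nup98, a nuclear pore gene, had 107 to 134 RPM in WT and 153 to 180 RPM in Het (difference 0.51, SE 0.12). Chd1l, a chromatin remodeller of the DNA damage response, had 68.5 to 110 RPM in WT and 113 to 163 RPM in Het (difference 0.67, SE 0.18). Shcbp1 (difference 0.44), Mpp6 (0.51, which overlaps another gene) and Dhrs2 (1.46, with 0 to 3 reads in the WT libraries) completed the group together with Hsd3b6, described with the Leydig cell genes.

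Markers of meiotic and later germ cells had median differences within 0.1 of 0. The median difference was -0.095 over 20 early meiosis genes, 0.033 over 18 genes of pachytene and diplotene spermatocytes, 0.046 over 19 of round spermatids and 0.049 over 27 of elongating spermatids, against -0.044 for all genes. In the 4 lists, 2, 0, 1 and 3 members were higher in Het at an unadjusted p below 0.05 and 0 were lower, beside 1.81% and 4.81% of all genes. The elongating spermatid median was 0.15 without WT replicate 1, 0.0077 without WT replicate 3 and 0.025 without Het replicate 2. The early meiosis members were Sycp2 and Sycp3, components of the lateral elements that line meiotic chromosomes. Sycp2 had 84.8, 88.2 and 94.1 RPM in WT and 112, 113, 107 and 111 RPM in Het (difference 0.31, SE 0.11). Sycp3 had 84.6, 102 and 97.1 RPM in WT and 115, 128, 104 and 125 RPM in Het (difference 0.32, SE 0.12). Neither gene overlapped between the groups, while Stag3, a meiotic cohesin subunit, did (596 to 636 RPM in WT, 459 to 721 RPM in Het).

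Among spermatid genes, Cylc1, a protein of the sperm head cytoskeleton, had 25.0 to 31.8 RPM in WT and 37.2 to 49.1 RPM in Het (difference 0.54, SE 0.17). Hook1, needed for the manchette that shapes the sperm head, had 360 to 418 RPM in WT and 431 to 499 RPM in Het (difference 0.27, SE 0.097), and Tssk3, a testis kinase, had 224 to 241 RPM in WT and 243 to 283 RPM in Het (difference 0.22, SE 0.10). The abundant protamine gene Prm2, whose product packs sperm DNA, ranged from 4309 to 6235 RPM in WT and from 4642 to 5741 RPM in Het. Prm1, the other protamine gene, followed the split of libraries seen in the first principal component rather than genotype: it had 2480, 1441 and 1429 RPM in WT and 1694, 2402, 1320 and 1317 RPM in Het, so WT replicate 1 and Het replicate 2 were the 2 highest. Prm1 was picked for this pattern after its values were seen.

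The list of undifferentiated spermatogonia had a median below 0, with no single gene at the unadjusted level. For 12 genes of undifferentiated spermatogonia, which include the stem cells, 11 differences were below 0, and the median was -0.36. Over all 16015 tested genes, 9175 differences were below 0. At an unadjusted p below 0.05, 0 of the 12 genes were lower and 0 higher, beside 4.81% and 1.81% of all genes. The mean level of the list, set to 0 for the WT mean, was -0.043, -0.10 and 0.14 in WT and -0.61, -0.35, -0.51 and -0.13 in Het, so the groups lay next to each other without overlap. The summed level did overlap, at 64.2 to 84.1 RPM in WT and 41.5 to 69.2 RPM in Het. Sall4, a transcription factor of spermatogonia, had 5.67, 3.76 and 7.56 RPM in WT and 2.78, 4.31, 2.62 and 2.70 RPM in Het. Ret, a receptor subunit for the niche factor GDNF, had 1.42, 4.43 and 7.56 RPM in WT and 1.51, 0.270, 0 and 5.90 RPM in Het. Both overlapped, and Gfra1, the partner of Ret, had a difference of -0.047. Over 12 genes of differentiating spermatogonia the median was -0.096. It was -0.046 without WT replicate 1 or Het replicate 3 and -0.0090 with quantile normalization. Of these genes 1 (8.33%) was lower at the unadjusted level, beside 4.81% of all genes. It was the cyclin gene Ccnd2 (6.17 to 12.5 RPM in WT, 3.41 to 5.39 RPM in Het).

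By count, Sertoli cell genes had the most members low in Het of any cell type list, and none passed the adjusted threshold. By share, the endothelial (41.7%) and Leydig cell (38.9%) lists below were close. Medians were lower in endothelium (-0.67) and in adipose and connective tissue (-0.56). Of 26 Sertoli genes tested, 11 (42.3%) had an unadjusted p below 0.05 and were lower in Het, beside 4.81% of all genes. At that level 0 were higher, and the median difference was -0.40. For 5 members (19.2%) all 4 Het libraries were below all 3 WT libraries, beside 4.63% of all genes. Members of a cell type list vary together from library to library, so they are not independent. The mean level of the list, set to 0 for the WT mean, was -0.24, 0.13 and 0.11 in WT and -0.52, -0.047, -0.42 and -0.39 in Het. Het replicate 2 was above WT replicate 1, so the groups overlapped, and the other 3 Het libraries were below every WT library.

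Among the Sertoli genes, Inha, the inhibin subunit that restrains pituitary FSH, had 132, 150 and 153 RPM in WT and 99.5, 127, 100 and 89.3 RPM in Het (difference -0.48, SE 0.13). Trf, the transferrin gene, had 31.2, 35.9 and 37.0 RPM in WT and 21.8, 25.1, 22.0 and 16.7 RPM in Het (difference -0.68, SE 0.19). In both genes the groups did not overlap. Clu, the secreted chaperone clusterin, had 1222, 1826 and 1978 RPM in WT and 1158, 1244, 1190 and 1207 RPM in Het (difference -0.45, SE 0.13). Its Het values were nearly equal, and WT replicate 1 lay among them. Ctsl, a lysosomal protease gene, overlapped too (289 to 559 RPM in WT, 280 to 358 RPM in Het). The transcription factor Gata4, picked after its values were seen, had 36.0, 35.4 and 42.6 RPM in WT and 16.4, 29.5, 19.1 and 29.6 RPM in Het, while Sox9, the factor that sets Sertoli cell fate, had a difference of -0.12 and Fshr, the FSH receptor, one of 0.13; both were picked in the same way. The list median was -0.49 without WT replicate 1 and -0.46 without Het replicate 2. The number of members lower at the unadjusted level was 6 without WT replicate 2 or without Het replicate 3 and 7 without Het replicate 4. In these fits 3.27%, 4.61% and 4.19% of all genes were lower at that level.

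Leydig cell genes showed the same lean with one clear exception. Of 18 tested, 7 (38.9%) were lower in Het at an unadjusted p below 0.05 and 1 (5.56%) was higher, beside 4.81% and 1.81% of all genes, and the median was -0.25. Insl3, the hormone that guides testis descent, had 1052, 1550 and 1267 RPM in WT and 809, 952, 832 and 500 RPM in Het, a difference of -0.76 (SE 0.18, limma adjusted p 0.595). Ptgds, a prostaglandin D synthase, had 857, 927 and 743 RPM in WT and 341, 656, 548 and 536 RPM in Het (difference -0.73, SE 0.16). Neither overlapped. The steroid enzyme genes were uneven: Cyp11a1, which makes pregnenolone, had 286 to 298 RPM in WT and 140 to 266 RPM in Het, and Cyp17a1, the next enzyme toward androgens, had 1085 to 1515 RPM in WT and 923 to 1384 RPM in Het (difference -0.19, SE 0.13). Lhcgr, the receptor for luteinizing hormone, had a difference of 0.021. Cyp11a1, Lhcgr and Hsd3b1 (below) were picked after their values were seen.

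The exception was Hsd3b6, a 3-beta-hydroxysteroid dehydrogenase of adult Leydig cells, with 58.3, 22.7 and 53.5 RPM in WT and 63.5, 121, 69.1 and 105 RPM in Het (difference 1.04, SE 0.28). All Het libraries were above all WT libraries. Its paralogue Hsd3b1 had 209, 455 and 345 RPM in WT and 170, 195, 318 and 234 RPM in Het (difference -0.52, SE 0.22), and its groups overlapped. The 2 genes belong to one family and lie near each other on chromosome 3; how the counting treated reads that fit both was not tested. For the list as a whole, the mean level with the WT mean at 0 was -0.067, 0.076 and -0.0097 in WT and -0.50, -0.013, -0.20 and -0.28 in Het. Het replicate 2 again sat within the WT range. The median was -0.14 within title number 2, that is without Het replicate 1, and 4 members were lower at the unadjusted level without WT replicate 2. It was -0.35 without WT replicate 1 and -0.36 without Het replicate 2.

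**Figure D3:**
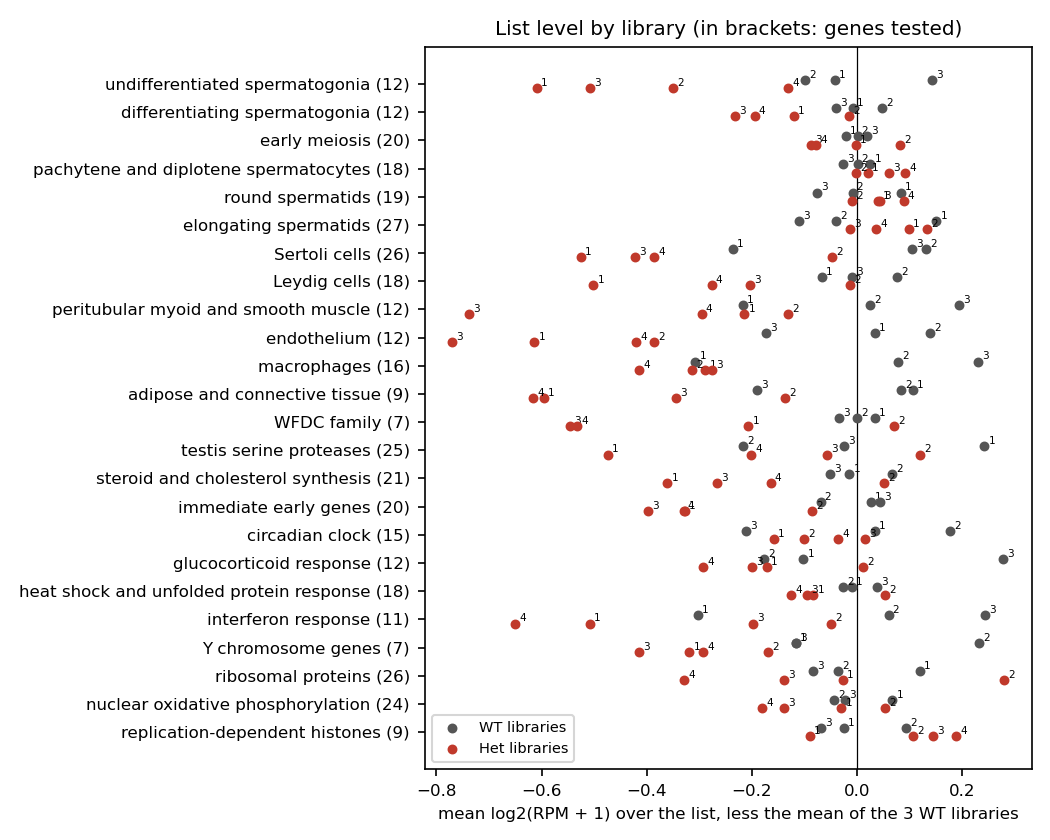
Mean log2(RPM + 1) of each gene list in each library (horizontal axis), less the mean of the 3 WT libraries, for WT (grey) and Het (red) libraries with replicate numbers; brackets give the genes tested. The lists of Sertoli and Leydig cells show Het replicate 2 inside the WT range, and the endothelial list shows the Het libraries, at -0.77 to -0.39, apart from the WT libraries, at -0.17 to 0.14.

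The other somatic lists leaned the same way at lower levels, with 0 members past the adjusted threshold. Over 12 endothelial genes the median was -0.67 and 5 (41.7%) were lower in Het at the unadjusted level, beside 4.81% of all genes. Their summed level was 72.2 to 89.5 RPM in WT and 45.0 to 53.0 RPM in Het, with no overlap. Vwf, the clotting factor carrier of endothelium, had 10.3, 10.7 and 17.6 RPM in WT and 5.81, 7.73, 1.65 and 7.92 RPM in Het (difference -1.14, SE 0.39). Flt1, a VEGF receptor, had 9.21 to 11.9 RPM in WT and 4.21 to 8.99 RPM in Het, while Egfl7 overlapped (difference -0.17). Without WT replicate 3, 2 endothelial genes were lower at the unadjusted level, and without WT replicate 2, 3 were. In these fits 3.8% and 3.27% of all genes were lower at that level. The median was -0.67 without WT replicate 1 and -0.62 without Het replicate 2.

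Contractile and connective tissue genes held fewer members past the unadjusted level. For peritubular myoid cells, the contractile layer around the tubules, 2 of 12 genes (16.7%) were lower, beside 4.81% of all genes, and the median was -0.28. Acta2, smooth muscle actin, had 44.3, 57.5 and 89.9 RPM in WT and 39.4, 44.8, 35.4 and 39.9 RPM in Het, with overlap, and Actg2 had a difference of 0.027. The count was 5 without WT replicate 1, 1 without WT replicate 2 or Het replicate 3, and 0 without WT replicate 3. In these fits, in the same order, 6.28%, 3.27%, 4.61% and 3.8% of all genes were lower. For adipose and connective tissue, 3 of 9 genes (33.3%) were lower and the median was -0.56. Among them Dcn, a collagen-binding proteoglycan, had 54.9, 45.5 and 63.8 RPM in WT and 34.5, 35.7, 44.3 and 32.2 RPM in Het, without overlap, while Adipoq, the adipocyte hormone, had a difference of 0.031. The median of that list was -0.27 without WT replicate 2.

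Genes of the macrophage list did not all lean the same way. Of 16 tested, 4 (25.0%) were lower in Het at the unadjusted level, beside 4.81% of all genes, and the median was -0.32. The mean level of the list, with the WT mean at 0, was -0.31, 0.078 and 0.23 in WT and -0.29, -0.31, -0.28 and -0.41 in Het. WT replicate 1 thus lay within the Het range. The summed level also overlapped, at 1326 to 1470 RPM in WT and 1232 to 1414 RPM in Het. Lyz2, lysozyme, had 25.7, 42.1 and 36.0 RPM in WT and 21.7, 22.1, 21.6 and 25.1 RPM in Het, and Cd68, a lysosomal marker of macrophages, had 5.90 to 7.56 RPM in WT and 1.35 to 4.42 RPM in Het. Both had separate groups. Aif1 (359 to 397 RPM in WT, 370 to 405 RPM in Het) and Cx3cr1 (784 to 907 RPM in WT, 734 to 892 RPM in Het) did not, and the reads of Cx3cr1 cannot be assigned to it alone because it overlaps another gene. Which cells of the testis the reads of Aif1 and Cx3cr1 came from was not tested, so their levels may not follow macrophages. Without WT replicate 3, 2 members were lower at the unadjusted level.

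Markers of tissue that dissection could bring in were few. Lymphocytes and red blood cells had 2 tested genes each, with summed levels of 16.1 to 20.7 RPM and 25.2 to 42.4 RPM in WT and of 13.4 to 22.5 RPM and 26.2 to 30.9 RPM in Het. Of 15 genes of epididymis and rete testis 4 were tested, with all 4 differences above 0 and a median of 0.25. The mean level of these 4, with the WT mean at 0, was -0.11 to 0.077 in WT and 0.21 to 0.47 in Het, without overlap, and their summed level was 115 to 141 RPM in WT and 133 to 176 RPM in Het, with overlap. The part of such tissue in the other differences was not tested. Lcn5, Lcn8, Lcn9, Adam7, Spint4, Rnase9 and Aqp1 were at 0 in all 7 libraries. Cst8 made up most of the summed RPM of the list and had 128, 105 and 129 RPM in WT and 120, 165, 156 and 150 RPM in Het (difference 0.29, SE 0.13).

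**Figure D4:**
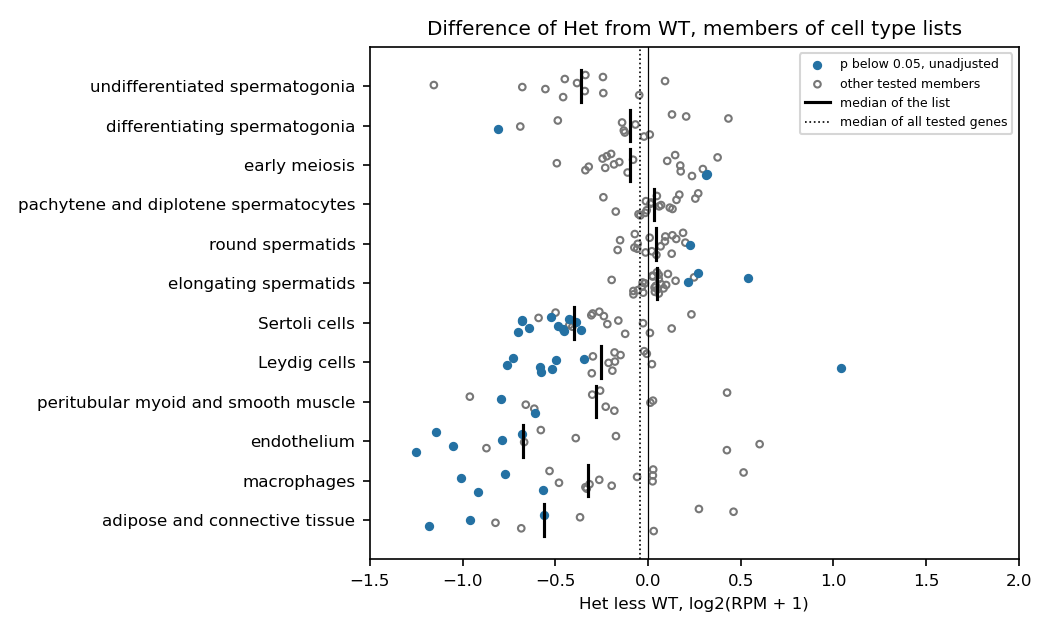
Difference of Het from WT in log2(RPM + 1) (horizontal axis) for each tested member of the cell type lists with at least 7 tested genes; filled points have an unadjusted p below 0.05, short bars are list medians and the dotted line is the median of all genes at -0.044. Meiotic and spermatid lists centre near 0, Sertoli cells at -0.40 and endothelium at -0.67, with Hsd3b6 the filled point at 1.04 among Leydig cell genes.

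Lists of pathways gave smaller counts. Of 21 genes of steroid and cholesterol synthesis 3 (14.3%) were lower in Het at the unadjusted level, beside 4.81% of all genes, with a median of -0.17. Dhcr7, the last enzyme of cholesterol synthesis, had 89.1, 107 and 87.9 RPM in WT and 29.3, 79.4, 55.2 and 68.1 RPM in Het (difference -0.78, SE 0.25), without overlap. Ebp, a sterol isomerase, had 25.9 to 33.3 RPM in WT and 13.2 to 26.4 RPM in Het, with overlap. Without Het replicate 2, 5 members were lower. Of 20 immediate early genes, switched on within minutes of stimulation, 3 (15.0%) were lower (Fosl2, Cyr61 and Jun) and the median was -0.31. Jun, a subunit of AP-1, had 8.20, 10.3 and 8.54 RPM in WT and 7.57, 5.21, 5.64 and 4.04 RPM in Het. Without WT replicate 3 the count was 0, and without Het replicate 3 it was 1 with a median of -0.14.

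In the remaining lists 0 to 2 members were lower at the unadjusted level, as were 4.81% of all genes. Of 12 glucocorticoid response genes, Fkbp5 alone was lower at the unadjusted level (median -0.13), and of 15 circadian clock genes 0 were lower or higher (median -0.077). Of 18 heat shock and unfolded protein response genes 2 (11.1%) were lower, Hsp90ab1 (difference -0.25) and Xbp1 (-0.48), or 0 without WT replicate 3 or Het replicate 1, and 1 without WT replicate 2, Het replicate 3 or Het replicate 4, and the median of -0.026 became 0.0045 with median-of-ratios scaling and 0.022 with quantile normalization. The 26 ribosomal protein genes had 0 members at the unadjusted level and a median of -0.020, which became 0.020 and 0.022 with these scalings. Of 24 nuclear oxidative phosphorylation genes 1, Uqcrc1 (difference -0.18), was lower (median -0.057), and of 9 replication-dependent histone genes 0 were lower or higher (median 0.010). Of 7 Y chromosome genes 2 (28.6%) were lower, Uty (difference -0.91) and Ddx3y (-0.75), while Eif2s3y had a difference of 0.33. Without WT replicate 2, 0 were lower and 1 was higher, and without any 1 of Het replicates 1 to 3, 1 was lower.

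Genes of the WFDC family and testis proteases were listed because Wfdc15a belongs to a family rich in protease inhibitors. Of 25 listed genes of the WFDC family and its cluster that were matched in the table, 7 were tested. Of these 0 had an unadjusted p below 0.05, beside 4.81% of all genes lower and 1.81% higher. The differences ran from -0.62 to 0.015, with a median of -0.34. Wfdc15a itself is among the 7 and gave the highest difference, and the other 6 differences were below 0. Members such as Wfdc6a and Wfdc6b also count among the neighbours of Wfdc15a below. Wfdc6a had 6.07, 11.5 and 12.6 RPM in WT and 8.84, 6.92, 6.88 and 5.05 RPM in Het. A further member of the cluster, Eppin, was not matched because the table lists it as Spinlw1; it was lower in Het at an unadjusted p of 0.0452 (limma, difference -0.42) and is described with the neighbours of Wfdc15a. Wfdc3, picked after its values were seen, had 27.9 to 37.7 RPM in WT and 27.96 to 35.2 RPM in Het (difference -0.074, SE 0.17). The 7 listed genes all overlapped between the groups, and the median was -0.15 without Het replicate 3. Of all genes, 2.44% had every Het library above every WT library and 4.63% had every Het library below. Of 25 testis serine proteases 1 (4.0%) was lower at the unadjusted level, near the 4.81% of all genes, and the median was -0.11. It was Prss50 (24.4 to 50.9 RPM in WT, 19.8 to 27.5 RPM in Het). Acr, the protease acrosin of the sperm acrosome, had 258 to 290 RPM in WT and 226 to 273 RPM in Het (difference -0.16, SE 0.10).

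Genes near Wfdc15a on chromosome 2 leaned slightly lower in Het. Within 1 Mb the table holds 82 genes, of which 44 were tested. Differences ran from -0.66 to 0.65 with a median of -0.16, and 5 genes (11.4%) were lower at an unadjusted p below 0.05, 0 were higher, and 3 (6.82%) had all Het libraries below all WT libraries, beside 4.81%, 1.81% and 4.63% of all genes. Of the 44 genes 27 overlap another gene. Within 5 Mb, 104 of 187 genes were tested, 10 (9.62%) were lower and 1 was higher, with a median of -0.094. Over the other 1250 tested genes of the chromosome 55 (4.40%) were lower and 25 (2.00%) higher, with a median of -0.040. With quantile normalization these were 37 and 37 (median 0.012), and within 5 Mb 6 were lower and 2 higher.

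Named after their values were seen, the 5 genes within 1 Mb were Fitm2, Sdc4, Spinlw1, Pltp and Gm11458, of which Fitm2, Pltp and Gm11458 overlap another gene. Spinlw1, also called Eppin, encodes a sperm-coating protease inhibitor and belongs to the WFDC cluster; it had 31.7, 42.9 and 38.1 RPM in WT and 28.5, 36.5, 24.9 and 22.2 RPM in Het (difference -0.42, SE 0.19), with overlap. Sdc4, a heparan sulfate proteoglycan gene, had 58.4, 93.9 and 88.2 RPM in WT and 51.9, 59.7, 52.3 and 56.3 RPM in Het (difference -0.51, SE 0.16), and WT replicate 1 lay below Het replicate 2. Pltp, a phospholipid transfer protein gene, had 15.6 to 22.1 RPM in WT and 10.9 to 13.8 RPM in Het, without overlap. The count within 1 Mb was 11 without WT replicate 1, 1 without WT replicate 2, 2 without WT replicate 3 and 3 without Het replicate 3 or 4. Within 5 Mb it was 17, 4 and 5 without WT replicates 1, 2 and 3. The share of all genes lower at an unadjusted p below 0.05 moved too. It was 6.28%, 3.27% and 3.8% without WT replicates 1, 2 and 3, and 4.61% and 4.19% without Het replicates 3 and 4.

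**Figure D5:**
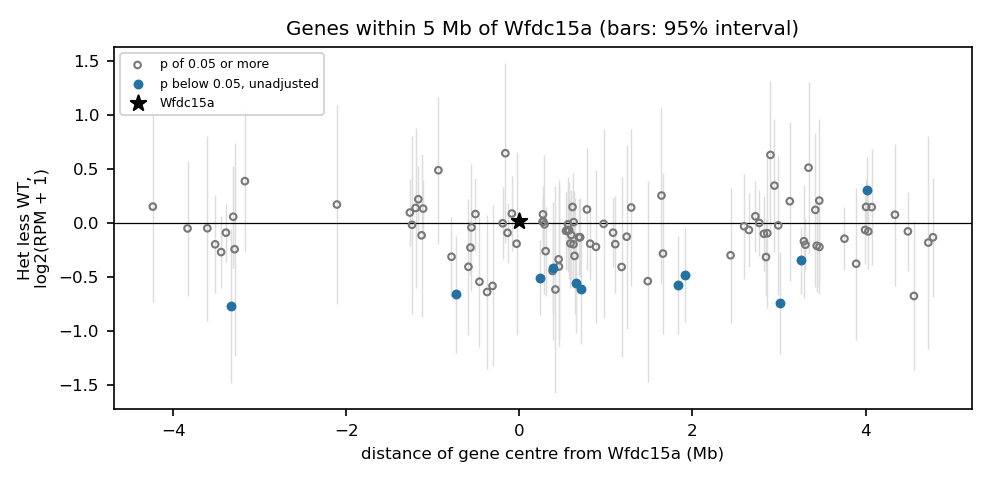
Difference of Het from WT in log2(RPM + 1) with its 95% interval (vertical axis) for the 104 tested genes within 5 Mb of Wfdc15a, by distance of the gene centre from that of Wfdc15a in Mb. Filled points have an unadjusted p below 0.05 (10 lower, 1 higher), and the star is Wfdc15a at 0.015.

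WT replicate 1 decided whether any gene was called lower. Without it, with 2 WT libraries left, limma called 20 genes lower and 1 higher in Het at an adjusted p below 0.05. For all 20, WT replicate 1 was the lowest of the 3 WT libraries, and for 14 it lay within the range of the Het libraries. These genes passed only with WT replicate 1 left out, a choice that favours genes in which it lay near the Het values. Their pattern is therefore no separate evidence about that library. The 20 included Lcn2 (difference -1.25, adjusted p 0.00641), Clu (-0.66, 0.0110) and Apoe (-0.80, 0.0407) in that limma fit. Of the others, picked after their values were seen, Lrg1, a secreted acute-phase glycoprotein, had 9.01, 28.8 and 38.6 RPM in WT and 6.56, 8.54, 9.50 and 3.37 RPM in Het. Serpina3n, an acute-phase protease inhibitor, had 8.20, 19.98 and 28.3 RPM in WT and 8.58, 4.67, 7.57 and 6.74 RPM in Het. Timp1, an inhibitor of matrix metalloproteinases, had 0.607, 9.92 and 6.86 RPM in WT and 0.551 to 1.01 RPM in Het, and it overlaps another gene. In these 3 genes WT replicates 2 and 3 were high and WT replicate 1 lay within the range of the Het libraries. The gene called higher was Hnrpll, a splicing factor, with 97.6, 40.2 and 25.8 RPM in WT and 68.9, 83.7, 127 and 77.0 RPM in Het. Without WT replicate 2, limma called 0 genes lower and 1 higher, Zdhhc5, a protein palmitoyltransferase, which had 43.9, 237 and 33.7 RPM in WT and 124 to 256 RPM in Het. Leaving out any other single library gave 0 calls in both directions.

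The intervals show what size of difference the 7 libraries could bound. For 74.4% of the tested genes (11916) the 95% interval lay wholly within a 2-fold difference either way, and for 36.8% within 1.5-fold. At 100 RPM or more these shares were 99.3% and 95.1%, and between 30 and 100 RPM 98.1% and 75.7%. Between 1 and 3 RPM they were 26.8% and 0%. The estimate itself was past 2-fold for 189 genes (1.18%), 48 higher and 141 lower, and 166 of these had a mean below 10 RPM. Fold differences of such genes are understated by the added 1 RPM. The intervals are also of log2(RPM + 1), so at low levels the shares bound RPM + 1 and overstate how far RPM is bounded.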

How the data were processed

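The analysis started from the table of log2 RPM values that the authors deposited (25965 genes, mm10). FastQC 0.11.8 and Trim Galore 0.6.6 are named in the submitters' processing notes. Aligner, counter and strand setting: not given in the sources used here. Per the labels' protocols, about 2 ng of RNA and 11 PCR cycles were used. PCR copies carry no molecular identifiers.

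The values were turned back into whole reads (at least 99.96% within 0.01 read in each library). The lowest value of each library, worth 0.9 read, was set to 0. A count of 0 allows up to 3 reads (95%, counting error only), or 0.270 to 0.505 RPM.

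A limma 3.58.1 model with a mean-variance trend (R 4.3.3) was fitted to log2(RPM + 1) in the 7 libraries, keeping genes that averaged 1 RPM or more (16015), with two-sided p-values adjusted by Benjamini-Hochberg (threshold 0.05). The fit was tested on simulated counts drawn independently for each gene and library, with no shifts shared between genes. Such counts differ from these libraries, so the test does not show how often the fit errs on them. Groups came from the genotype labels. Lists are described by counts and medians, without set tests. Genes were named by rule: Wfdc15a, the 10 of lowest p in each direction, up to 3 of lowest p in each of 27 lists and the 2 highest of each cell type list; exceptions are stated, and 1 gene that the rule names is not reported here. The comparison and the lists were chosen with earlier results of these data known.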

Additional observations from a re-analysis of the deposited data

Results flagged for a closer look

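For 114 named genes and 27 lists, the 4 Het libraries were searched for a single library far from the other 3, by Dixon's criterion at 95%, which chance meets in about 1 in 20 groups. It was met 8 times in these 141 groups. Het replicate 2 was the high library for 5 genes: Oasl2, an interferon response gene (11.1 RPM against 0.964 to 1.89 in the others), Hsd17b7, a sterol synthesis gene (13.1 RPM against 4.41 to 5.18), Hba-a1, alpha globin (4.49 RPM against 1.14 to 1.68), Sall4 (4.31 RPM against 2.62 to 2.78) and the histone gene Hist1h4a (13.3 RPM against 8.96 to 9.64). Het replicate 1 was low for Wfdc1 (12.5 RPM against 18.5 to 19.3). Het replicate 4 was high for Lyz2 (25.1 RPM against 21.6 to 22.1) and low for Bhlhe41, a clock gene (0.842 RPM against 1.51 to 1.65). The groups share libraries and so are not independent.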

How the results depend on the processing

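With 11 other processing choices (pseudocounts of 0.1 and 5 RPM, no filter, a minimum of 5 RPM, 2 scalings, limma-voom, robust variance, a fit with all 13 libraries, title number 2 only and a replicate block), limma called 0 genes in both directions, with lowest adjusted p-values of 0.148 to 0.796. Leaving out each library in turn gave 0 to 1 genes higher, 0 to 20 lower and a Wfdc15a difference of -0.11 to 0.22, the highest without WT replicate 1. Same-numbered WT and Het libraries did not deviate together (r over genes -0.0141, -0.0887 and 0.0313), and not every library correlated best with its own number, so the numbers were not taken as pairs; with the replicate block, 0 genes were called higher and 0 lower, 217 and 686 had an unadjusted p below 0.05 and Wfdc15a differed by -0.018. No WT library has number 4, so Het replicate 4 did not enter the difference in this fit, as in the fit without that library. With the block, 2 genes within 1 Mb and 5 within 5 Mb of Wfdc15a were lower at an unadjusted p below 0.05. At that level 7 Sertoli genes were lower and 1 elongating spermatid gene was higher, beside 4.28% of all genes lower and 1.35% higher. Over 18 settings the other 113 named genes gave 2008 values, of which 1940 moved by at most 1 standard error with no change of call, 64 (37 genes) moved further without passing the threshold, and 4 passed the threshold (all without WT replicate 1). The sign changed in at least 1 setting for 12 of the genes. Depth limits the low genes most: between 1 and 3 RPM, 26.8% of genes had an interval of log2(RPM + 1) within 2-fold.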
